A study of Mus musculus with 12 samples.

Results

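The genes described here are 31 genes of the retinal vessel wall and of the blood-retina barrier, picked by symbol from the deposited gene tables. They comprise 20 genes of endothelial cells, the inner lining of vessels, and 11 mural genes, which belong to the pericytes and smooth muscle cells that wrap that lining. Each of the 31 symbols matched 1 row of the 54367 genes in either table. The cells were not separated, so every value is a level in RNA of whole retina.

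The study measured poly(A) RNA of retinas from wildtype C57BL/6 mice aged 8 to 12 weeks. The right eye was burned at 4 positions with a 532 nm laser (spots of 75 µm, pulses of 0.1 s), and the untreated left eye of each mouse served as its own control. Retinas were taken 3 or 7 days later, with 3 lasered and 3 control libraries on each day and 12 libraries in all. All 4 groups share strain, genotype and age. The series title places the study in the inflammatory stage of retinal angiogenesis, and the comparison made here asks whether the RNA of vessel genes differed between lasered and control eyes of the same day.

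Retinal capillaries form the inner blood-retina barrier. Their endothelial cells are joined by tight junctions built from claudin-5, occludin and the scaffold protein ZO-1, carry few vesicles, and pump lipophilic compounds back into the blood. Norrin, a ligand made by Müller glia, acts through Wnt-type receptors on endothelial cells and is needed for this barrier, and pericytes cover the capillaries densely. The choroid behind the pigment epithelium has another kind of capillary, whose endothelium is perforated by fenestrae closed with diaphragms made of PLVAP protein.

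Between 9282006 and 12515820 reads per library were recovered from the day 3 table and between 23886208 and 31092904 from the day 7 table. Values are a signal scaled by gene length and library size, close to TPM and called the level below, and differences are given as log2(value + 1), lasered minus control. A gene was tested with limma when its mean level over the 6 libraries of a day was at least 1. On day 3 the test called 25 of 16786 genes at an adjusted p under 0.05, and on day 7 it called 38 of 15592 genes. These counts hung on single libraries: leaving out 1 library at a time gave 0 to 294 genes on day 3, the most without lasered library 1, and 0 to 41 on day 7. The labels do not say that libraries of equal number came from 1 mouse, so the p-values measure the spread between these libraries. Lasered library 1 of day 3 stood apart, with a summed level of 12 leukocyte genes of 1942 against 81.9 and 186 in the other lasered libraries and of 8 rod genes of 9471 against 23337 and 17311. On day 7, lasered library 2 departed from the others by base composition, with a median deviation from the mean of the 6 libraries of 0.87 log2 units for genes of at most 40% GC and of -0.49 for genes above 60% GC. On day 3 that deviation for genes above 60% GC was higher in every lasered library (0.34, 0.22 and -0.0084) than in the controls (-0.26, -0.14 and -0.10). Plvap and Cldn5, at 60.6% and 60.5% GC, are the most GC-rich of the 31 genes.

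On day 3 the endothelial genes lay mostly higher in the lasered retinas, led by Plvap and Cldn5, as did most of all genes tested. None of them passed the test. Of the 20 genes, 12 were tested and 0 were called by limma after adjustment (background 0.149%), with 3 at an unadjusted p under 0.05, all higher (background in that direction 20.7%), and voom on recovered reads also called 0. The smallest adjusted p was 0.0938. Of the 12, 11 had a difference above 0, against 68.2% of all genes tested, and 8 exceeded the median of all genes. The median difference of the 12 was 0.28, against 0.16 for all genes. Without lasered library 1 these medians were 0.15 and 0.13, and after rescaling by median of ratios they were 0.07 and -0.03. The groups did not overlap for 4 of the 12 (Cldn5, Plvap, Ly6c1 and Podxl), all higher after laser, where 27.7% of all tested genes lay that way. In whole tissue, a change in the number of vessel cells and a change of RNA per cell cannot be told apart.

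Plvap, the diaphragm protein of fenestrae, is on chr8:71497765-71511752 (mm10, minus strand). Its levels were 8.24, 7.57 and 7.50 in lasered libraries 1 to 3 and 2.34, 4.71 and 3.94 in control libraries 1 to 3. The 3 lasered levels lay close together and above every control. The difference was 0.95 (SE 0.22, 95% interval 0.44 to 1.46; limma adjusted p = 0.0938), and it was 0.91 without lasered library 1. With each library's trend over GC content removed it was 0.53 (limma adjusted p = 0.211). Because the choroid behind the pigment epithelium has fenestrated vessels, the summed level of 10 pigment epithelium and melanocyte genes is given beside it. These genes are not markers of choroidal vessels. That sum was 63.5, 227 and 739 in the lasered libraries and 372, 591 and 508 in the controls, so its highest and lowest values were both in lasered libraries. Its part in the Plvap levels was not tested. Plvap overlaps Gtpbp3, a protein-coding gene on the opposite strand, whose mean level on day 3 was 0.984. No source used here states whether the counting used strand.

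Among the junction genes, Cldn5 stood out. Cldn5, on chr16:18776847-18778262 (plus strand), encodes claudin-5, the main sealing protein of endothelial tight junctions. Its levels were 6.82, 3.997 and 1.95 after laser and 1.44, 1.47 and 0.566 in controls. All lasered levels were above all controls. These levels rest on 46, 38 and 15 reads against 14, 14 and 4. The difference was 1.203 (SE 0.38, 95% interval 0.32 to 2.09; limma adjusted p = 0.132), and it was 0.86 without lasered library 1 and 0.79 with GC trends removed.

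The other junction genes gave no such separation. Pecam1, which encodes the adhesion molecule CD31 at endothelial contacts, had levels of 3.23, 1.62 and 1.33 against 1.87, 1.503 and 2.01. Tjp1, which encodes ZO-1, had 8.17, 6.94 and 5.70 against 5.74, 5.92 and 8.01. Ocln, which encodes occludin, had 2.42, 2.56 and 2.30 against 2.97, 1.31 and 2.43. In each of these 3 genes the groups overlapped, the differences were 0.09, 0.07 and 0.12, and each changed sign under rescaling by median of ratios (-0.06, -0.12 and -0.04). ZO-1 and occludin also occur in epithelial junctions, so their RNA is not of vessels alone. Esam, an adhesion molecule of endothelial tight junctions, ranged from 14.4 to 16.2 after laser and from 12.6 to 14.7 in controls. Cdh5, which encodes the adherens junction protein VE-cadherin, was too low to test, with 15, 2 and 3 reads in the lasered libraries and 2, 7 and 0 in the controls.

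Among the endothelial surface proteins, Ly6c1 and Podxl lay higher in every lasered library. Ly6c1, a surface antigen of capillary endothelium in nervous tissue, had levels of 44.0, 21.2 and 19.1 against 13.2, 9.29 and 16.1. Its difference was 1.00 (SE 0.34; limma adjusted p = 0.149), and it was 0.63 without lasered library 1. Ly6c1 has a near-identical neighbour, Ly6c2, a marker of inflammatory monocytes, and the split of reads between the pair is uncertain. Ly6c2 itself had levels of 12.7, 0.414 and 0.806 after laser and 0.281, 0.170 and 0.581 in controls, so it was high in lasered library 1, the library with the highest leukocyte sum. Podxl, which encodes the sialomucin podocalyxin of the luminal surface, had levels of 8.95, 6.35 and 5.87 against 5.70, 4.44 and 5.66, with a difference of 0.35 (limma adjusted p = 0.314). That difference was 0.19 without lasered library 1, 0.15 and 0.11 with median-of-ratios and quantile scaling, and 0.13 with GC trends removed. Podxl is also made outside vessels. Emcn, another sialomucin, and Icam2, an adhesion molecule for leukocytes, were tested and overlapped between groups, with differences of 0.36 and 0.22. Eng and Robo4 were under the minimum, with 3 to 12 and 4 to 15 reads per library.

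The remaining endothelial genes were barrier transporters, transcription factors and secreted proteins. Slco1a4, an organic anion carrier of brain and retinal capillaries, was the only tested endothelial gene with a difference below 0, at -0.07. Abcb1a, which encodes the efflux pump P-glycoprotein, and Mfsd2a, a lipid carrier that restrains vesicle transport across the barrier, were under the minimum. Mfsd2a had levels of 0.892, 0.315 and 0.736 against 0.274, 0.414 and 0.442. The transcription factor genes Erg and Sox17 had at most 3 reads in any library of day 3. Vwf, which encodes the clotting factor stored in endothelial granules, was under the minimum but did not overlap, with levels of 0.750, 0.291 and 0.195 against 0.0480, 0.164 and 0.0867. Of the genes under the minimum and above 0, 7.52% lay higher after laser without overlap. Egfl7, a secreted factor of endothelial matrix, had a difference of 0.64 and overlapping groups, with its highest level, 5.82, in lasered library 1.

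**Figure D1:**
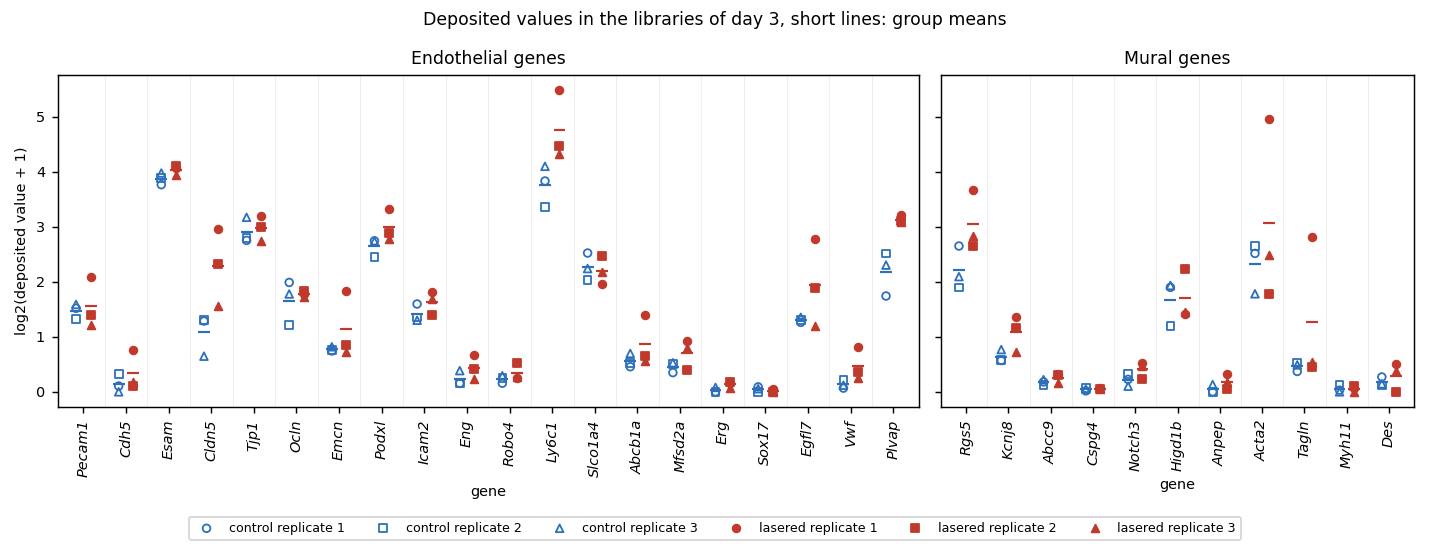
Levels of the 20 endothelial and 11 mural genes in the 6 libraries of day 3, as log2(level + 1), with open blue symbols for control and filled red symbols for lasered libraries, the symbol shape for the replicate number, and a short line for each group mean. Plvap, Cldn5, Ly6c1, Podxl and Rgs5 show lasered symbols above all controls, and lasered library 1 lies far above the other libraries for Acta2 (level 30.2) and Tagln (level 6.02).

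The mural genes of day 3 were led by Rgs5 among those with reads in all libraries. Of the 11, 4 were tested and 0 were called by limma (background 0.149%), 1 (Rgs5) was at an unadjusted p under 0.05 and higher (background in that direction 20.7%), and voom on recovered reads called 0. The smallest adjusted p was 0.177, and the median difference was 0.78, against 0.16 for all genes. Without lasered library 1 these medians were 0.17 and 0.13. Rgs5 encodes a regulator of G protein signalling and is one of the most used pericyte markers; it lies on chr1:169655501-169695813 (plus strand). Its levels were 11.8, 5.30 and 6.09 after laser and 5.28, 2.72 and 3.27 in controls, so the lowest lasered level was barely above the highest control. Of all tested genes, 27.7% lay higher without overlap. The difference was 0.84 (SE 0.32, 95% interval 0.10 to 1.58; limma adjusted p = 0.177), and 0.53 without lasered library 1.

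Acta2 and Tagln depended on 1 library. Acta2, which encodes smooth muscle actin, had levels of 30.2, 2.41 and 4.62 after laser and 4.72, 5.30 and 2.44 in controls. Its difference was 0.76 (SE 0.76; limma adjusted p = 0.586) and turned to -0.19 without lasered library 1. Tagln, which encodes the actin-binding protein transgelin, had 6.02, 0.375 and 0.463 against 0.293, 0.449 and 0.403, and without lasered library 1 its mean was under the minimum. Tagln overlaps Pcsk7, a protein-coding gene on the opposite strand, which had a mean level of 7.70 on day 3. Smooth muscle actin is also made by myofibroblasts, and the summed level of 8 fibroblast genes was 10.4, 2.41 and 5.72 after laser and 2.58, 3.35 and 3.54 in controls. The part of such cells in the Acta2 levels was not tested. Higd1b, a pericyte marker, had 1.66, 3.68 and 1.74 against 2.73, 1.28 and 2.82. The channel genes Kcnj8 and Abcc9, whose products form a potassium channel of pericytes, the surface gene Anpep and the filament gene Des were under the minimum. So were Notch3, a receptor needed for mural cell survival (0.431, 0.173 and 0.392 against 0.170, 0.248 and 0.0737), Cspg4, which encodes the proteoglycan NG2 (at most 4 reads per library), and Myh11, the smooth muscle myosin (at most 5 reads).

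On day 7 the vessel genes lay mostly lower in the lasered retinas, though not under every setting, and again none passed the test. Of the 20 endothelial genes, 15 were tested and 0 were called by limma (background 0.244%), 0 were at an unadjusted p under 0.05 (background 3.94%), and voom on recovered reads called 0. Of the 15, 2 had a difference above 0, against 61.5% of all genes, and the median difference was -0.18, against 0.06 for all genes. In none of the 15 were the groups separate, where 8.89% of all genes tested were. Of the 11 mural genes, 6 were tested and 0 were called, 2 (Higd1b and Acta2) had an unadjusted p under 0.05 and were lower (background in that direction 0.795%), and the median difference was -0.20. In voom on recovered reads 0 mural genes were called. Where limma weighted the libraries, the medians of the endothelial and mural genes turned to 0.04 and 0.11, against 0.0045 for all genes, and without both libraries of number 2 they were -0.08 and 0.01.

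On day 7 the sign of the difference went by replicate number for many endothelial genes, as it did in some other lists. Over all genes tested, deviations from the group means correlated on day 7 between the libraries of equal number. The values were 0.485, 0.559 and 0.128 for numbers 1 to 3. Number 3 was not matched best with itself, since lasered library 3 correlated at 0.205 with control library 1. Lasered library 1 correlated at 0.118 with control library 3. Cldn5, Cdh5, Eng and Robo4 did not share a level within number 3, which was their highest lasered and their lowest control library. Within numbers 1 and 2 the lasered library was lower and within number 3 it was higher for 9 of the 15 tested endothelial genes (60%) and for 3 of the 6 mural genes, against 12.7% of all genes tested. In the lists described below, that order held for 5 of 8 other smooth muscle, 6 of 13 other endothelial and 3 of 8 norrin and Wnt genes tested. It held for 1 of 12 other junction genes and 1 of 8 other pericyte genes. The median difference of the endothelial genes was -0.21, -0.61 and 0.21 for numbers 1 to 3, where all genes gave 0.03, 0.10 and 0.05. With GC trends removed, 8 of the 15 had that order of signs, against 13.8% of all genes. The 9 genes are Pecam1, Cdh5, Cldn5, Ocln, Podxl, Eng, Robo4, Egfl7 and Vwf, and they were singled out after their values were seen. The order of signs was taken from these same values, so its excess over the share of all genes is no test. The genes were also read in the same libraries and are not separate observations.

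**Figure D2:**
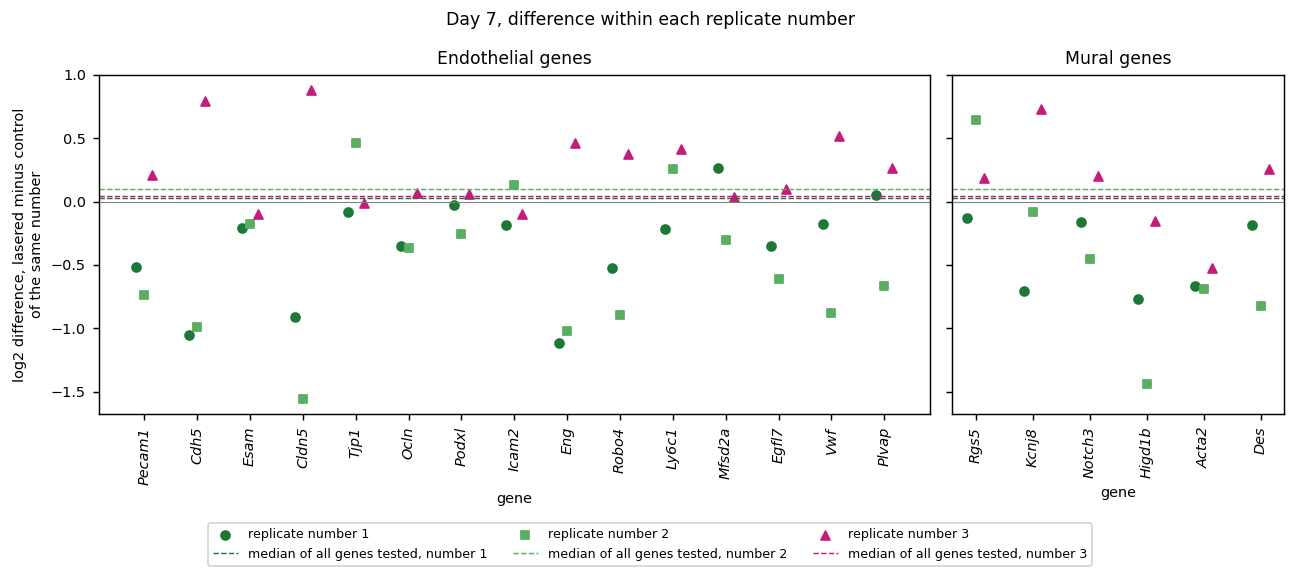
Difference in log2(level + 1) between the lasered and the control library of the same replicate number on day 7, for the 15 tested endothelial and 6 tested mural genes; the symbol and colour give the number and dashed lines the median of all genes tested. Most circles and squares (numbers 1 and 2) lie below 0 and most triangles (number 3) above it, as for Cldn5 (-0.91, -1.55 and 0.88).

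Cldn5 showed that order of signs most plainly. Its levels on day 7 were 29.7, 14.04 and 38.4 after laser and 56.6, 43.2 and 20.4 in controls. Control library 3 was the lowest control and lasered library 3 the highest lasered one, so the groups overlapped. The difference was -0.53 (SE 0.46, 95% interval -1.60 to 0.55; limma adjusted p = 1.00). It was -0.13 without lasered library 2, -0.94 without control library 3, and 0.31 where limma weighted the libraries.

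Cdh5, Pecam1 and Ocln, the other junction genes of that pattern, had smaller ranges. Cdh5 had levels of 1.68, 1.70 and 3.36 against 4.55, 4.36 and 1.52, and Pecam1 had 3.09, 3.79 and 3.75 against 4.85, 6.98 and 3.10. Ocln had 0.723, 1.24 and 1.14 against 1.2, 1.89 and 1.04. Their differences were -0.42, -0.35 and -0.22. Cdh5 turned to 0.04 and Pecam1 came to -0.02 with library weights, and without control library 3 they were -0.79 and -0.59. Tjp1 had levels of 3.63, 8.60 and 4.70 against 3.91, 5.98 and 4.73, with the highest level in lasered library 2. Its difference of 0.12 became -0.18 without that library. Esam was the only tested endothelial gene lower in all 3 numbers, with levels of 24.5, 20.4 and 26.3 against 28.5, 23.2 and 28.2.

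Eng and Robo4, endothelial surface receptors, followed Cldn5. Eng encodes endoglin, a co-receptor for BMP9 signalling whose loss causes vessel malformations, and Robo4 encodes a guidance receptor that stabilises vessels. Eng, on chr2:32646595-32682669 (plus strand), had levels of 3.87, 2.83 and 6.50 after laser and 9.57, 6.78 and 4.44 in controls. Robo4 had 0.954, 0.638 and 1.76 against 1.82, 2.05 and 1.13. Eng had the smallest p of the endothelial genes on day 7, with a difference of -0.56 (SE 0.35, 95% interval -1.38 to 0.26; limma adjusted p = 1.00). Robo4 differed by -0.35 (SE 0.30). Over the alternatives run, Eng ranged from -0.82 (without lasered library 3) to -0.23 (library weights) and Robo4 from -0.76 (voom on recovered reads) to -0.08 (without both libraries of number 2). Leaving out lasered library 2 alone gave -0.34 and -0.18. Eng overlaps Fpgs, a protein-coding gene on the opposite strand, which had a mean level of 14.7 on day 7.

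The upstream sequences of Cldn5, Eng and Robo4 are shown as examples from the genes that went together on day 7. ETS-family factors, ERG among them, are known drivers of endothelial genes. The choice hung in part on the entries at hand: Cdh5, of the same order of signs, had no promoter entry, while Egfl7 and Ocln had entries that are not shown. Each is the 250 bases before the gene's RefSeq start (GRCm38.p6, plus strand), with capitals for the letters AGGAAG or CGGAAG on either strand (CTTCCT or CTTCCG as printed). Cldn5 is at chr16:18776597-18776846, Eng at chr2:32646345-32646594 and Robo4 at chr9:37401722-37401971.
Cldn5: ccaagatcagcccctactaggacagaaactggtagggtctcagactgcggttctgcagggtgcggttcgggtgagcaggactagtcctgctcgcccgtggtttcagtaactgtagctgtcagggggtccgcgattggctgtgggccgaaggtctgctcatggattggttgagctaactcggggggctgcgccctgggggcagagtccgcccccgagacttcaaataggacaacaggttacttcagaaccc
Eng: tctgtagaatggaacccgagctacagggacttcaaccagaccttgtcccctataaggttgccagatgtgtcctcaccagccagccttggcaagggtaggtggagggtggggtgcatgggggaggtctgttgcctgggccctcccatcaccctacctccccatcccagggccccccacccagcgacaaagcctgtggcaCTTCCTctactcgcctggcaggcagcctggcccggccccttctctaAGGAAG
Robo4: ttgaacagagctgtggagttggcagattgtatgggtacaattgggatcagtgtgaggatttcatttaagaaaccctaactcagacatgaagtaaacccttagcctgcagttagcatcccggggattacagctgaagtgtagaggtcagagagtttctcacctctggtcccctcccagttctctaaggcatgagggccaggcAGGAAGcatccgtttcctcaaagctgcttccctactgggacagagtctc
Eng held these letters at 2 places, with first bases at -52 and -6 from the start, Robo4 held them at 1 place, at -49, and Cldn5 held them at 0. The letters occurred in 39.2% of 32851 RefSeq promoter windows of this length. Promoter entries were found for 20 of the 31 genes, and 10 of the 18 windows of endothelial genes and 0 of the 8 windows of mural genes held the letters.

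The other surface genes differed less. Podxl had levels of 125, 111 and 139 against 128, 133 and 133, a difference of -0.07. Ly6c1 had 32.6, 33.0 and 26.8 against 37.97, 27.4 and 19.8, a difference of 0.15, and Icam2 differed by -0.05. Emcn was under the minimum. Among the barrier transporters, Mfsd2a had levels of 8.65, 7.01 and 6.99 after laser and 7.04, 8.87 and 6.81 in controls, a difference of -0.0015 (SE 0.21, 95% interval -0.49 to 0.48). That interval leaves room for changes of either sign. Abcb1a and Slco1a4 were under the minimum.

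Plvap had levels of 21.3, 10.4 and 21.9 after laser and 20.6, 17.03 and 18.04 in controls on day 7. Lasered library 2 held the only level apart from the rest. The difference of -0.12 (95% interval -0.79 to 0.56) became 0.21 without that library. Gtpbp3, the protein-coding gene on the opposite strand that overlaps Plvap, had a mean level of 32.3 on day 7. That was above every Plvap level of that day, so the share of reads of each gene is uncertain. Vwf had 2.30, 1.16 and 2.93 against 2.74, 2.98 and 1.75, and its difference of -0.18 became 0.07 without the same library. Egfl7 differed by -0.29, and it overlaps Agpat2, a protein-coding gene on the opposite strand with a mean level of 4.55 on day 7. Of the transcription factor genes, Sox17 had levels of 0.384, 0.420 and 0.729 against 1.19, 1.13 and 0.317, which is the order of signs of Cldn5, and Erg ranged from 0.0697 to 0.152 against 0.105 to 0.491. Both were under the minimum.

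**Figure D3:**
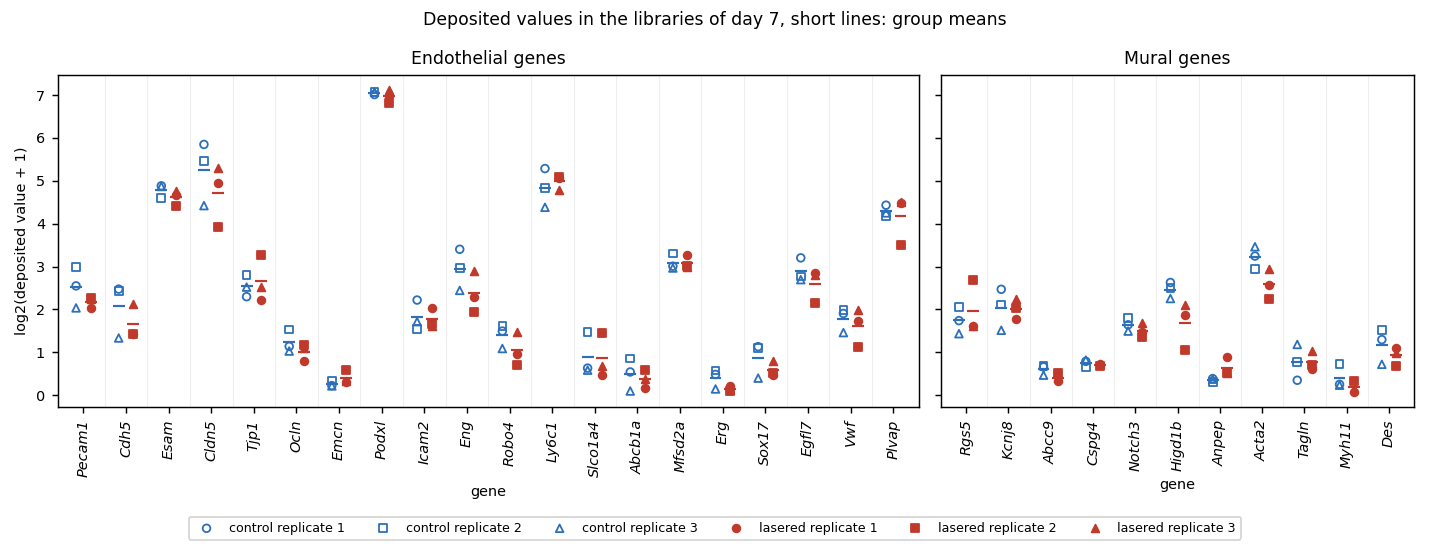
Levels of the 31 genes in the 6 libraries of day 7, as log2(level + 1), with the symbols of the day 3 plot. Control library 3 (open triangle) lies below the other controls and lasered library 3 (filled triangle) above the other lasered libraries for Cldn5, Cdh5, Eng and Robo4, while Higd1b shows all lasered symbols below all controls.

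Among the pericyte genes of day 7, Higd1b was lower in every lasered library. Higd1b, on chr11:102835849-102838040 (plus strand), had levels of 2.63, 1.09 and 3.3 after laser and 5.18, 4.64 and 3.77 in controls. The groups did not overlap, as in 2.11% of the genes tested in that direction. The levels rest on 20, 8 and 29 reads against 41, 39 and 25. The difference was -0.79 (SE 0.32, 95% interval -1.54 to -0.04; limma adjusted p = 1.00, and 0.539 with the replicate number as a block). It ran from -1.17 (voom on recovered reads) to -0.46 (without both libraries of number 2) over the alternatives run. Rgs5, the pericyte gene that led on day 3, had levels of 2.04, 5.45 and 2.07 against 2.34, 3.15 and 1.70. Its difference of 0.23 became -0.13 without lasered library 2. Notch3 had 1.78, 1.55 and 2.23 against 2.12, 2.49 and 1.82, a difference of -0.14, and Kcnj8 differed by -0.02.

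The contractile genes of day 7 were led by Acta2. Acta2, on chr19:34241090-34255336 (minus strand), had levels of 4.97, 3.75 and 6.67 after laser and 8.47, 6.66 and 10.01 in controls. It was lower in the lasered library of all 3 numbers, as 8.51% of all tested genes were, although lasered library 3 was level with control library 2. The difference was -0.63 (SE 0.26, 95% interval -1.24 to -0.01; limma adjusted p = 1.00, and 0.244 with the replicate number as a block). Reads of Acta2 may be shared with other actin genes of like sequence. Des, which encodes the filament protein desmin, had levels of 1.16, 0.614 and 0.971 against 1.45, 1.85 and 0.646. Its difference of -0.25 became 0.04 without both libraries of number 2. Myh11 had 0.0554, 0.251 and 0.103 against 0.190, 0.656 and 0.175, lower in each number but under the minimum. Tagln (0.524, 0.633 and 1.04 against 0.273, 0.709 and 1.27) and Cspg4 (0.664, 0.591 and 0.644 against 0.727, 0.574 and 0.761) overlapped and were not tested. Pcsk7, on the strand opposite Tagln, had a mean level of 21.1 on day 7. Anpep, which encodes an aminopeptidase of pericytes that myeloid cells also make, had 0.867, 0.438 and 0.422 against 0.307, 0.231 and 0.295. It lay higher without overlap but was under the minimum, where 4.05% of genes did so.

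**Figure D4:**
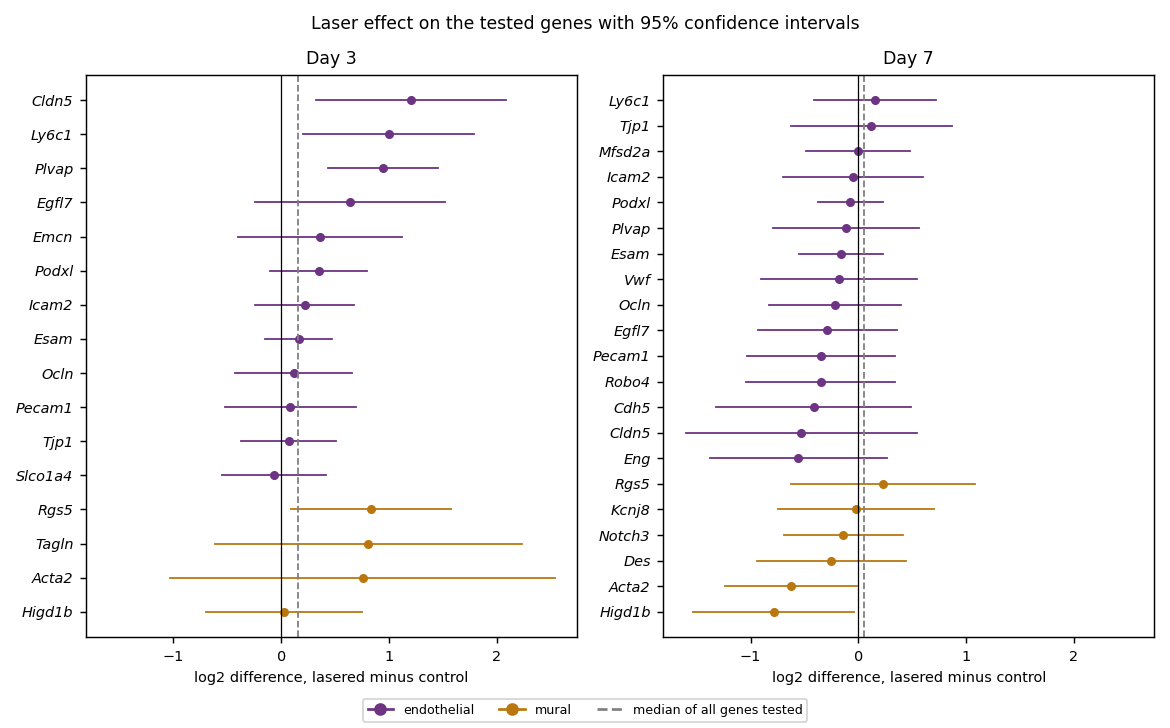
Difference in log2(level + 1), lasered minus control, for each tested gene on days 3 and 7, with limma's 95% confidence intervals and the median of all genes tested. On day 3 most genes lie to the right of 0, with Cldn5 at 1.203 and Plvap at 0.95; on day 7 most lie to the left, with Higd1b at -0.79 and Acta2 at -0.63.

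Whether the laser effect itself differed between the days was tested over all 12 libraries. Of 17611 genes tested, 0 were called (0%) and 9.39% had an unadjusted p under 0.05. Plvap and Cldn5 had the smallest p of the vessel genes. The Plvap difference was smaller on day 7 by -1.06 (SE 0.38, 95% interval -1.90 to -0.22; limma adjusted p = 0.443). For Cldn5 the change was -1.73 (SE 0.65, 95% interval -3.15 to -0.31; limma adjusted p = 0.456), and -0.29 with library weights. Each day has its own table and its own depth, so this comparison is set across tables.

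The effect of the laser was not read from levels set across the days. The control retinas themselves differed between the tables along base composition, and day, depth and preparation cannot be told apart there. Cldn5, with 60.5% GC in its transcript, had a mean control level of 1.16 ± 0.513 (SD, n = 3) on day 3 and 40.1 ± 18.3 on day 7. Slco1a4, with 40.3% GC, went the other way, from 3.85 ± 0.839 to 0.944 ± 0.730. The largest ratio of the 31 genes was not at high GC: Podxl, with 52.0% GC, went from a mean control level of 5.27 to 131. Over the 20 vessel genes whose mean control level reached 1, the log2 ratio of (level + 1) between the control groups, day 7 over day 3, correlated with GC content at r = 0.728, and over 17226 genes at r = 0.614. These are correlations across genes of the same libraries, given as a description without a test. The median log2 ratio of all genes ran from -2.05 at up to 40% GC to 3.40 above 60%.

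**Figure D5:**
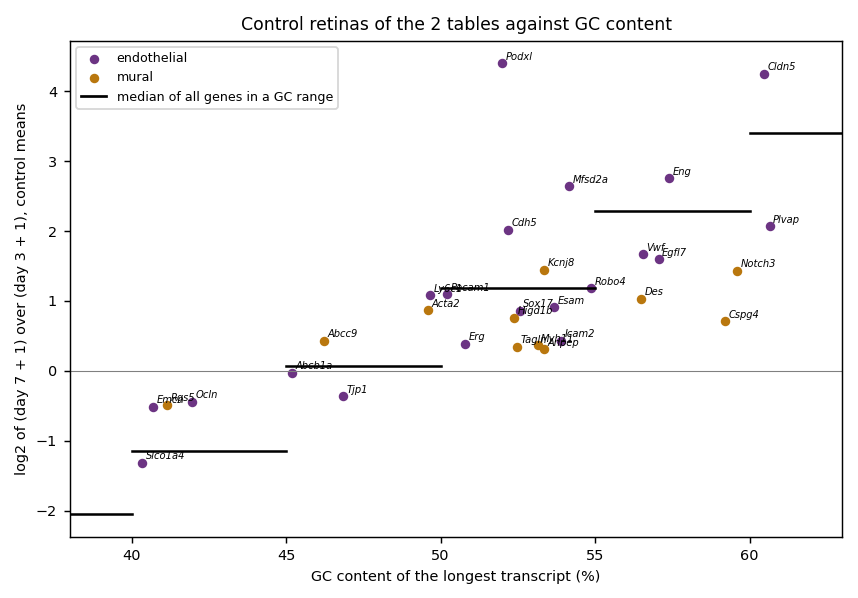
Log2 of the mean control level + 1 on day 7 over that on day 3 (vertical) against the GC percent of the gene's longest transcript (horizontal), for the 31 vessel genes, with horizontal lines for the medians of all genes in ranges of GC content. Genes rich in GC, such as Cldn5 at 60.5%, lie high and genes poor in GC, such as Slco1a4 at 40.3%, lie low.

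Genes of the same pathways that were not among the 31 gave no call on day 3. They were 20 other endothelial genes, 14 other junction genes, 10 genes of norrin and Wnt signalling, 12 other pericyte genes and 11 other smooth muscle genes. Of these, 12, 12, 5, 6 and 7 were tested and 0 were called by limma (background 0.149%). The medians were 0.50, 0.26, 0.19, 0.39 and 0.06, against 0.16 for all genes. Ndp, which encodes norrin, had day 3 levels of 74.9, 33.4 and 39.96 after laser and 17.2, 19.8 and 20.7 in controls, a difference of 1.23 (limma adjusted p = 0.0938). Kdr, which encodes the VEGF receptor VEGFR2, had 15.7, 10.2 and 7.95 against 5.09, 4.89 and 4.96, a difference of 0.99 (limma adjusted p = 0.0940). F11r, the junction adhesion molecule JAM-A, and Mcam, an adhesion molecule of pericytes and endothelium, differed by 0.89 and 1.02 without overlap, where 27.7% of all tested genes lay that way.

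On day 7 the same lists had 13, 12, 8, 8 and 8 genes tested and 0 called (background 0.244%). Their medians were -0.05, 0.20, 0.12, 0.04 and -0.09, against 0.06 for all genes. Ndp had levels of 29.4, 29.9 and 29.7 against 19.3, 20.1 and 23.5, a difference of 0.49 (limma adjusted p = 0.770). Kdr had 43.7, 95.9 and 59.4 against 23.3, 48.8 and 32.8, a difference of 0.89 (limma adjusted p = 1.00). With the replicate number as a block Kdr was called (limma adjusted p = 0.0465), where 53 genes (0.34%) were. Kdr is also made by other retinal cells, so its RNA is not of vessels alone. Unlike Cldn5, Kdr was higher in the lasered library of all 3 numbers, as 21.4% of all tested genes were.

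Summed leukocyte markers lay higher after laser on both days. On day 3 all 11 tested leukocyte genes had a difference above 0 (68.2% of all tested genes), and 10 of the 12 lay higher without overlap (27.7% of all tested genes). Their sum ran from 19.7 to 21.6 in controls and from 81.9 to 1942 after laser, with Ccr2 at 0 in the controls. On day 7 the sum ran from 28.0 to 32.5 in controls and from 178 to 214 after laser. Of the 12 genes 6 were tested, all with a difference above 0 (61.5% of all tested genes). Limma called 4 of them, all higher (Cd74, Lyz2, Cd68 and Csf1r), where 0.244% of all tested genes were called. Aif1 and Cx3cr1 differed by 1.54 and 0.96 and were not called. The 6 genes not tested were under the minimum. Of these, Ccr2 and Ptprc were at 0 in the controls and at most 0.0454 and 0.0275 after laser, and S100a9 was at 0 in all lasered libraries and at 0.410 in 1 control. Leukocytes also make Pecam1, Icam2 and Anpep, and their part in those levels was not tested. The 5 erythrocyte genes, whose RNA comes with blood in the vessels, were lower after laser on day 7 without overlap (sums of 33.1 to 42.3 against 67.3 to 125), as were 2.11% of all tested genes, and 0 were called. On day 3 their sums overlapped, from 1325 to 3125 after laser and from 375 to 5494 in controls, and their part in the levels of the vessel genes was not tested.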

How the data were processed

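RNA of whole retina was measured in 12 libraries, in 4 groups of 3. The titles give the group and replicate number of each. Libraries were made with a directional kit, per the labels' protocols. The submitters' processing notes list STAR 2.7.0, edgeR 3.28.0 and mm10. No source used here states the counting tool, its strand setting or the annotation.

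Per gene, the deposited tables, 1 for each day, hold a signal that the authors name TPM. Each value had been divided by 1 of the 6 library totals, recycled down the rows, so the signal is off strict TPM by a factor between 0.918 and 1.09 (day 3) or 0.915 and 1.09 (day 7). This shifted the groups of a gene by at most 0.10 log2 units on day 3 and 0.0043 on day 7. The main tests kept the deposited values. Multiplied by exon lengths of GENCODE M21, in which 53681 of 54367 genes have the same coordinates, low values came out as whole reads for 98.9% to 99.2% per library, within 0.05. Mitochondrially encoded genes took 15.7% to 22.7% of the signal on day 3 and 1.10% to 4.21% on day 7.

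The tests were run separately by day with limma 3.58.1 in R 4.3.3 (lmFit, eBayes with trend, 2-sided) on log2(value + 1), keeping genes whose mean reached 1, with Benjamini-Hochberg adjustment over all genes tested and a threshold of 0.05. The log scale with a pseudocount understates changes of low genes. The test had been planned for TPM and was kept for the signal. The difference between days was the interaction over 12 libraries. The fits were tested on simulated data. The main tests of both days left the replicate number out. On day 7 the numbers were used to compare libraries of equal number, since all 3 correlations of deviations were over 0.1 (0.485, 0.559 and 0.128). That cut cannot show pairing, because lasered library 3 with control library 1 (0.205) and lasered library 1 with control library 3 (0.118) also passed it. On day 3 the correlations of equal numbers were 0.041, 0.016 and 0.077, and no pairing was shown.

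The genes and lists were chosen with earlier results of these data known. All 31 genes may be named. Levels in every library were printed for the 4 endothelial and 3 mural genes with the smallest p of each day and for a set of junction, barrier and mural genes, and from each other list up to 3 genes with the smallest p could be named. Alternatives covered the pseudocount, the filter, scaling, library weights, the block, a joint fit, leaving out libraries, the divisor, voom on recovered reads, mitochondrial genes and GC trends. Those on the divisor, voom, mitochondrial genes, GC trends and both libraries of 1 replicate number were chosen after the data were seen. A count of 3 reads per kb of exon corresponds to a level between 0.428 and 0.612 (day 3) or 0.291 and 0.365 (day 7), for counting error only.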

Additional observations from a re-analysis of the deposited data

How the results depend on the processing

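None of the 31 genes was called under any of the alternatives run, 21 for each day and 22 for the difference between days. Among them the smallest adjusted p from limma was 0.0567 for endothelial and 0.131 for mural genes on day 3. It was 0.501 and 0.130 on day 7, and 0.0749 between days. The causes of the changes below were not tested. Depth limits the low genes, most of all on day 3, and 3 libraries per group limit every test.

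The count of all genes called on day 3 was 25. It was 0 without the filter, 14 and 12 with median-of-ratios and quantile scaling, 0 with the replicate block, 369 with library weights, 1016 in the joint fit, 0 to 294 when 1 library was left out, 5 with voom on recovered reads, 1 with GC trends removed, 0 with the block and GC trends removed, and 162 without both libraries of replicate 1. On day 7 it was 38, and 13 without the filter, 24 with median-of-ratios scaling, 114 with weights, 22 in the joint fit, 0 to 52 when 1 library or both of replicate 2 were left out, 13 with voom and 76 with GC trends removed. With the replicate block it was 53, and the block changed no call of the 31 genes, while Kdr of the other endothelial genes was called (limma adjusted p = 0.0465).

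The day 7 median of the mural genes, -0.20, was -0.63 for genes whose mean reached 5, 0.11 with weights, -0.379 to 0.0142 when libraries were left out and -0.45 with voom. That of the endothelial genes, -0.18, was 0.0424 with weights and -0.40 with voom.

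Single genes changed sign as follows. On day 3 Pecam1, Tjp1 and Ocln were at -0.0639, -0.125 and -0.0383 with median-of-ratios and -0.137, -0.171 and -0.0932 with quantile scaling. Pecam1 and Tjp1 were at -0.182 and -0.179 with voom and at -0.101 and -0.0664 with GC trends removed, also with the block. Pecam1 was at -0.0955 with weights. With libraries left out, Acta2 ran from -0.188 (without lasered library 1) to 1.41, Pecam1 from -0.174 to 0.256, Tjp1 from -0.114 to 0.205 and Ocln from -0.107 to 0.283.

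On day 7 with weights, Cldn5, Des, Cdh5, Plvap, Vwf, Mfsd2a and Tjp1 were at 0.310, 0.274, 0.0424, 0.107, 0.166, 0.241 and -0.158. With libraries left out, Des ran from -0.478 to 0.0363, Plvap from -0.289 to 0.214, Vwf from -0.367 to 0.168, Mfsd2a from -0.0914 to 0.148, Tjp1 from -0.179 to 0.347, Rgs5 from -0.130 to 0.413 and Notch3 from -0.233 to 0.0161. Mfsd2a was also at 0.00107 with the divisor undone and 0.00193 without mitochondrial genes.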
